A study of Mesocricetus auratus with 8 samples.

Results

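The genes described here are mammalian cold-inducible and cold-shock-domain RNA-binding genes, together with Rtn3, an mRNA reported as a target of one of them. The rule lists them by symbol, and the list was drawn up with earlier results of these data known: Rbm3, Cirbp, Ybx1, Ybx3, Carhsp1 and Rtn3. Of these 6 symbols, 5 were found among the 17590 genes with values, and Cirbp, which has no entry under that symbol, was not analysed here. The 5 genes with their NCBI Gene identifiers are Rbm3 (101839782), Ybx1 (110343481), Ybx3 (101842157), Carhsp1 (101823326) and Rtn3 (101831176). All 5 are protein-coding genes of the hamster RefSeq annotation. No coordinates are given, because the genome build behind the counts is not given in the sources used here.

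The libraries were made from polyA RNA of primary satellite cells (SCs), the stem cells of skeletal muscle, of wild-type Syrian hamsters (Mesocricetus auratus), a species that hibernates. The cells came from hindlimb muscles of sexually mature males, were enriched by preplating and were grown in serum-rich growth medium (GM) at 37 °C. In the control group (0 h of cold, n = 4 libraries), RNA was taken before cooling, and in the cold group (n = 4 libraries) after 24 h at 4 °C in sealed containers without a change of medium. The labels of the cold group state that HEPES-buffered GM was used for the last day at 37 °C before cooling, and the treatment protocol gives the same medium for all samples. The question addressed was how the SCs of a hibernator respond to cold at the level of transcripts.

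Control titles place all 4 libraries on day 3 of culture, whereas their treatment label counts 3 days at 37 °C for replicate 1, 4 for replicate 2, 5 for replicate 3 and 6 for replicate 4. By the titles, cold libraries were collected 24 h later than controls, and no library kept at 37 °C for that further day was analysed here, so time in culture and cold cannot be told apart. Whether libraries came from separate animals or cultures is not stated beyond the term biological replicates, and p-values measure the spread between these libraries. Depth ranged from 16530747 to 18533801 expected counts per library, and 12506 genes passed the filter on low counts, all 5 genes among them. All 8 markers of SCs and myoblasts exceeded 1 TPM (a transcript level normalised for gene length and depth) in every library. Their level over both groups ranged from 10.8 to 16.1 TPM for Pax7, from 99.9 to 205 for Myf5, from 424 to 693 for Myod1, from 724 to 924 for Des and from 117 to 199 for Cdh15. All 7 fibroblast markers also exceeded 1 TPM in every library, with summed levels of 1001 to 1517 TPM in control and 987 to 1475 in cold. Among the 4 leukocyte markers, Ptprc and Adgre1 did not exceed 0.03 TPM, Csf1r had 2.31 to 4.55 TPM and Cd68 reached 52.0 TPM. These leukocyte markers summed to 25.9 to 54.2 TPM in control and 26.4 to 55.7 in cold. The 4 endothelial markers summed to at most 3.87 TPM. The 3 markers of smooth muscle and pericytes summed to between 29.0 and 33.3 TPM.

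RBM3 and CIRBP are small glycine-rich proteins with an RNA recognition motif (RRM), whose transcripts and proteins are known to accumulate when mammalian cells are mildly cooled, and which bind mRNAs and influence their translation, stability and 3′-end processing. The cold-shock domain is an ancient nucleic-acid-binding fold shared with the cold-shock proteins of bacteria. In animals it is carried by the Y-box proteins, which package mRNAs into ribonucleoprotein particles (mRNPs), and by CARHSP1. Despite the name of the domain, these animal proteins are best known as general mRNA-binding proteins rather than as products of cold induction. RBM3 has been described in the brain of cooled and hibernating animals, where RTN3 is reported to be translated from an RBM3-bound mRNA.

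All 5 transcripts were present at moderate to high level in the SCs, and 0 of the 5 passed edgeR's quasi-likelihood test of cold against control with Benjamini-Hochberg adjustment. Group means differed by between 0.584% for Rtn3 and 8.86% for Ybx3, all higher in cold on the TPM scale. On log2(TPM + 0.1), 58.5% of the 13792 genes past a TPM filter were also higher in cold, against 52.9% in the edgeR fit. Rbm3, the classical cold-inducible transcript, averaged 582 TPM before cooling and 610 TPM after it. In this fit, which has no term for the replicate number, 0 of 12506 genes (0%) were called higher and 9 (0.072%) lower at an adjusted p under 0.05. With the replicate number added to the model as a block, 158 genes (1.26%) were called higher and 509 (4.07%) lower. At an unadjusted p under 0.05, edgeR without the block called 6.7% of genes (838 genes) and 0 of the 5.

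**Figure D1:**
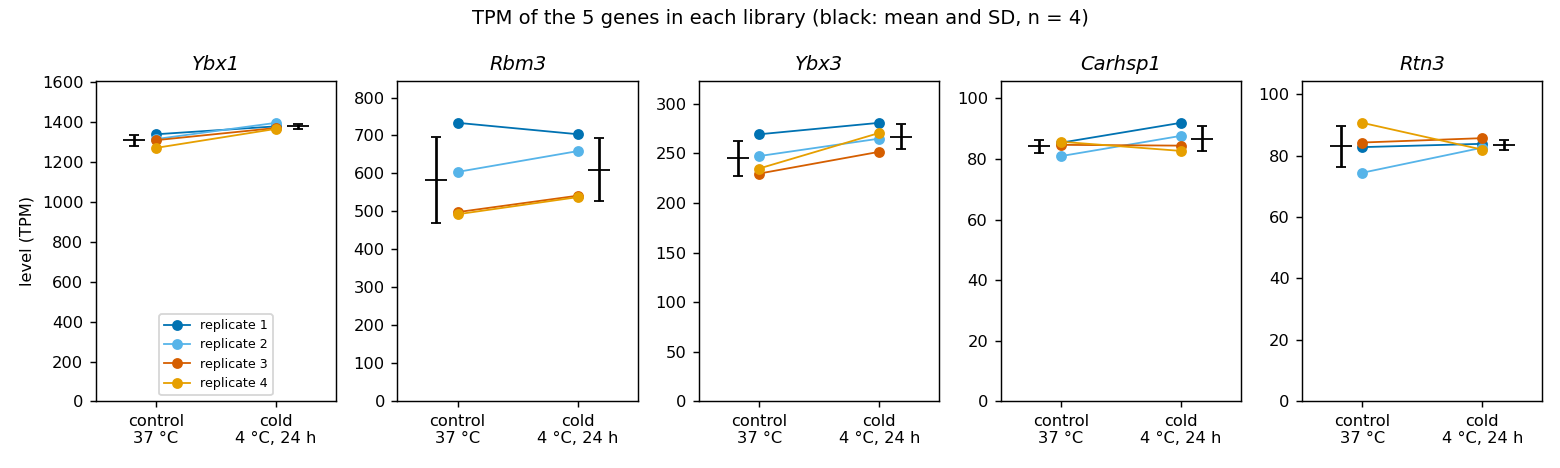
TPM of the 5 genes in each library, with the vertical axis from 0 and lines joining control and cold libraries of the same replicate number. Black marks give the group mean and SD (n = 4). Ybx1 was the only one of the 5 whose groups did not overlap in TPM, and Rbm3 differed more between replicates 1 and 2 and replicates 3 and 4 than between cold and control.

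Rbm3 encodes the RRM protein named above. Control replicates 1 to 4 held 733, 604, 498 and 493 TPM. Cold replicates 1 to 4 held 703, 659, 542 and 538 TPM. The 2 groups overlapped almost completely, and cold replicate 1 was below its control counterpart while the other 3 cold libraries were above theirs. The means were 582 ± 113 TPM in control and 610 ± 83.7 TPM in cold (SD, n = 4), a difference of 4.86% that was smaller than the SD of either group (exact two-sided permutation test over 70 arrangements, p = 0.686). Rbm3 counts lay between 5482 and 8722 per library, so counting error was small beside the spread between libraries. The fitted log2 fold change of Rbm3 was 0.05 (SE 0.16, 95% interval −0.31 to 0.41, edgeR adjusted p = 0.999).

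The level of Rbm3 differed by replicate number. The 4 libraries of replicates 1 and 2 all had at least 604 TPM, and the 4 libraries of replicates 3 and 4 all had at most 542 TPM, with a ratio of the means of 1.30. The same split of the libraries was the first principal component of all genes, with 54.5% of the variance, and the second, with 17.9%, separated cold from control. Beside Rbm3, the ratio of replicates 1 and 2 over replicates 3 and 4 was 2.10 for Myog, a transcription factor of myoblast differentiation, 1.23 for Myod1 and 0.848 for Pax7. Summed fibroblast markers were lower in replicates 1 and 2, at 1005 and 1001 TPM in control and 1062 and 987 in cold, than in replicates 3 and 4, at 1323 and 1517 in control and 1339 and 1475 in cold. Leukocyte sums (25.9 to 30.6 against 40.2 to 55.7 TPM) and endothelial sums (1.96 to 2.51 against 2.77 to 3.87 TPM) were also lower there. Sums of SC and myoblast markers were higher there. They were 2482 and 2510 against 2225 and 2071 TPM in control. In cold they were 2171 and 2336 against 2161 and 1976 TPM. The part of cell composition in the Rbm3 level was not tested, and fewer cells of a type and less RNA per cell cannot be told apart in bulk libraries. Among the other 4 genes the same ratio was 1.08 for Ybx3, 1.02 for both Ybx1 and Carhsp1, and 0.945 for Rtn3.

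With the replicate number as a block in the edgeR model, the error of the Rbm3 change shrank to an SE of 0.041. The blocked log2 fold change was 0.06, with a 95% interval of −0.02 to 0.15 (edgeR adjusted p = 0.453). On the linear scale the upper bound of that interval was 1.11-fold, against 1.33-fold without the block. Same-numbered log2 ratios of Rbm3 were −0.06, 0.13, 0.12 and 0.13 for replicates 1 to 4, and the smallest p that an exact test over 4 pairs allows is 0.125. Leaving out control replicate 3 or 4, or cold replicate 1 or 2, turned the unblocked estimate to between −0.0376 and −0.0039 on the log2 scale and left it uncalled.

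Ybx1 encodes YB-1, the main core protein of cytoplasmic mRNPs. It was the most abundant of the 5 transcripts. Control replicates 1 to 4 held 1339, 1315, 1309 and 1270 TPM. Cold replicates 1 to 4 held 1378, 1396, 1370 and 1366 TPM. Every cold library was above every control library, with means of 1308 ± 28.3 and 1378 ± 13.3 TPM (SD, n = 4) and a difference of 5.32%. The exact permutation p was 0.0286, the smallest that 4 against 4 libraries can give, and over pairs the exact p was 0.125, again the smallest possible. Among all genes tested, 2.27% (284 genes) were separated in this way with cold higher and 2.41% (301 genes) with cold lower. Of the 5 genes, Ybx1 was the 1 separated in this way.

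Of the 3 scales examined, TPM was the 1 on which Ybx1 was separated. In log2 CPM, the depth-normalised count, after TMM normalization the groups overlapped, with 3 of 4 pairs higher in cold (exact permutation p = 0.286). In the deposited normalized counts they overlapped too, from 18274 to 20837 in control and from 19730 to 21281 in cold, with 4 of 4 pairs higher (exact permutation p = 0.286). The edgeR log2 fold change of Ybx1 was 0.06 without the block (SE 0.051, 95% interval −0.06 to 0.17, adjusted p = 0.999) and 0.06 with it (SE 0.033, interval −0.01 to 0.13, adjusted p = 0.367). Leaving out cold replicate 1 or cold replicate 2 raised the exact p in TPM to 0.0571, with differences of 69.3 and 63.4 TPM and groups still not overlapping. With 1 library fewer, the exact test has fewer arrangements, so its p moves in coarser steps. Ybx1 counts contained decimals in 8 of 8 libraries. Decimals can arise where reads are divided between genes, which would make its level uncertain and was not tested. The other 4 genes had whole counts in every library.

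Ybx3 encodes a second Y-box protein, also known as CSDA or ZONAB. Its control replicates 1 to 4 held 269, 247, 230 and 235 TPM. Its cold replicates 1 to 4 held 281, 265, 252 and 271 TPM. All 4 cold libraries were above their same-numbered controls, but the groups overlapped, because control replicate 1 was higher than cold replicates 2 and 3. The means were 245 ± 17.6 and 267 ± 12.2 TPM (SD, n = 4), the widest relative difference of the 5 genes at 8.86%, and did not pass the exact permutation test (p = 0.114).

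In the edgeR fit the log2 fold change of Ybx3 was 0.10 (SE 0.079, 95% interval −0.08 to 0.28, adjusted p = 0.984). With the replicate block it was 0.11 (SE 0.040, interval 0.02 to 0.19), with an unadjusted p of 0.0156 that did not survive adjustment (edgeR adjusted p = 0.147). The blocked fit gave an unadjusted p under 0.05 with cold higher for 8.48% of all genes (1061 genes), and Ybx3 was 1 such gene of the 5. DESeq2 with the same block gave Ybx3 an unadjusted p of 0.0277 and an adjusted p of 0.429. The 4 same-numbered log2 ratios were 0.06, 0.10, 0.13 and 0.20, and the upper bound of the blocked interval was 1.14-fold.

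Carhsp1 encodes a small calcium-regulated protein with a single cold-shock domain that is known to bind Tnf mRNA. Control replicates 1 to 4 held 85.4, 81.0, 84.7 and 85.7 TPM. Cold replicates 1 to 4 held 92.0, 87.6, 84.4 and 82.7 TPM. Replicates 1 and 2 were higher in cold and replicates 3 and 4 lower, and the groups overlapped. The means were 84.2 ± 2.19 and 86.7 ± 4.07 TPM (SD, n = 4, exact permutation p = 0.371), with an edgeR log2 fold change of 0.02 (SE 0.053, 95% interval −0.09 to 0.14, adjusted p = 0.999). With the block the interval was −0.06 to 0.10.

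Rtn3 encodes a reticulon, a membrane protein that shapes the tubules of the endoplasmic reticulum (ER). It is not an RNA-binding protein. Control replicates 1 to 4 held 82.8, 74.4, 84.3 and 90.7 TPM. Cold replicates 1 to 4 held 83.8, 82.6, 85.7 and 81.9 TPM, all inside the control range. The means were 83.0 ± 6.69 and 83.5 ± 1.65 TPM (SD, n = 4, exact permutation p = 0.886). The edgeR log2 fold change was −0.0074 (SE 0.049, 95% interval −0.12 to 0.10, adjusted p = 0.999) and, with the block, −0.0064 (interval −0.09 to 0.08). The sign of this value differed between scales, because the difference in TPM was slightly positive. A library measures transcripts, and translation of the Rtn3 mRNA was not measured.

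**Figure D2:**
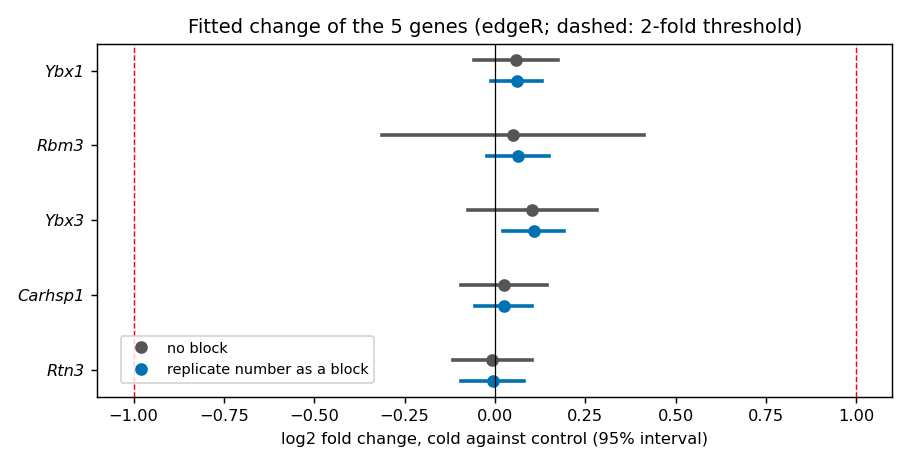
Fitted log2 fold change of each gene, cold against control, as a point with its 95% interval from edgeR, without (grey) and with (blue) the replicate number as a block. The dashed lines mark a log2 fold change of 1 in either direction. All 10 intervals lie well inside these lines, and the widest, for Rbm3 without the block, reaches 0.41.

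Across edgeR and DESeq2, each with and without the block, 0 of the 5 genes passed an adjusted p of 0.05. The counts at an unadjusted p under 0.05 were 0, 1, 0 and 1 for edgeR, edgeR with the block, DESeq2 and DESeq2 with the block, the 1 gene being Ybx3 each time. For comparison, edgeR with the block called 1.26% of all genes higher (158 genes) and 4.07% lower (509 genes), DESeq2 called 0.945% in either direction (136 of 14387 genes) and DESeq2 with the block 2.49% (350 of 14066 genes). In TPM, values were higher in all 4 cold libraries than in their same-numbered controls for 2 of the 5 genes, Ybx1 and Ybx3, against 12.8% of all genes (1597 genes), and lower in all 4 for 0 of the 5, against 10.5% (1312 genes). In log2 CPM after TMM normalization, Ybx1 was higher in 3 of 4 pairs and Ybx3 in 4 of 4.

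The sizes of the 5 changes were ordinary among all genes. In the edgeR fit, 6.03% of genes changed less than Rtn3 in absolute log2 fold change, 19.7% less than Carhsp1, 37.4% less than Rbm3, 43.4% less than Ybx1 and 66.4% less than Ybx3. The median absolute log2 fold change of all genes was 0.07, and their median signed value was 0.0071. The upper bounds of the unblocked intervals were 1.07-fold for Rtn3, 1.10-fold for Carhsp1, 1.13-fold for Ybx1, 1.22-fold for Ybx3 and 1.33-fold for Rbm3. Larger increases of these transcripts after 24 h at 4 °C lie outside those 95% intervals.

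**Figure D3:**
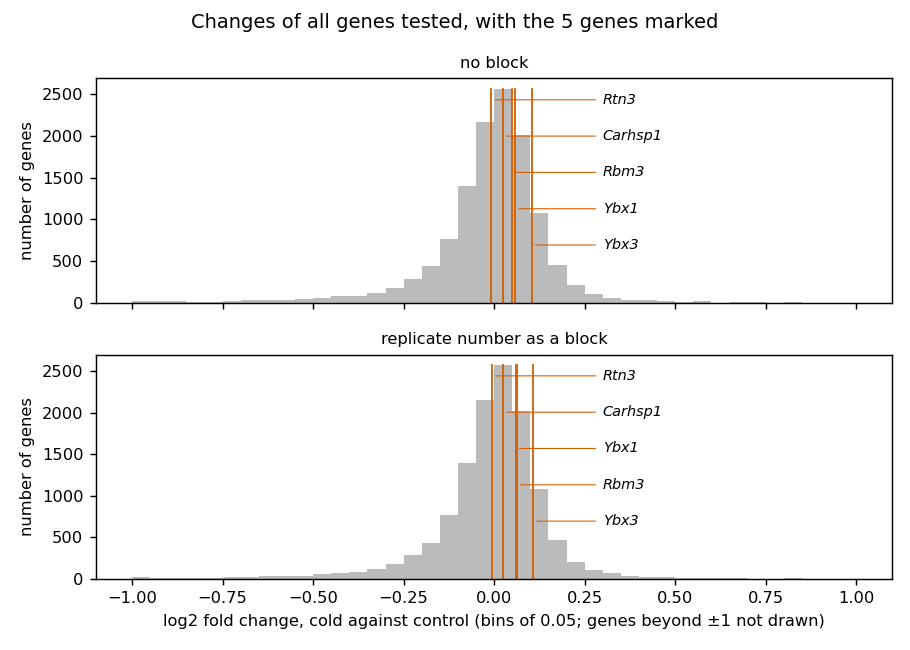
Histograms of the log2 fold change of all 12506 genes tested, cold against control, in bins of 0.05, from edgeR without (top) and with (bottom) the replicate block, with the 5 genes marked by vertical lines. The 5 genes fall in the central peak, and 108 genes below −1 and 6 above 1 in the fit without the block (103 and 6 with it) are outside the range drawn.

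The order of the levels was stable. Ybx1 was above Rbm3, Rbm3 above Ybx3 and Ybx3 above Carhsp1 and Rtn3 in 8 of 8 libraries. Within a library, Ybx1 was 1.83 to 2.63 times Rbm3, Rbm3 1.99 to 2.72 times Ybx3, and Ybx3 2.71 to 3.27 times Carhsp1. Carhsp1 and Rtn3 could not be ordered beyond their spread: Carhsp1 was higher in 6 of 8 libraries, with a ratio of 0.945 to 1.10. Among 16658 genes ranked by mean TPM, Ybx1 was at rank 118, Rbm3 at 224, Ybx3 at 572, Carhsp1 at 1790 and Rtn3 at 1846. The 5 transcripts together made up 0.217% to 0.254% of all TPM of a library, from 2174 to 2509 TPM in control and from 2333 to 2538 TPM in cold.

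Spread between libraries varied from gene to gene. The coefficient of variation (CV) of Rbm3 was 19.4% in control and 13.7% in cold. For Ybx3 it was 7.19% and 4.57%, for Rtn3 8.05% and 1.97%, for Carhsp1 2.61% and 4.70%, and for Ybx1 2.16% and 0.966%. With n = 4 per group these CVs are themselves imprecise, and differences between the CVs of control and cold were not tested.

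Ratios of 2 of the genes within a library do not depend on the scaling between libraries. The log2 ratio of Ybx1 to Ybx3 was 2.42 ± 0.081 in control and 2.37 ± 0.066 in cold (SD, n = 4), lower in cold in 4 of 4 pairs by 0.01 to 0.10, and did not pass the exact permutation test (p = 0.4, Benjamini-Hochberg adjusted p = 0.643 over the 3 ratios computed). Over pairs the exact p of this ratio was 0.125, the smallest that 4 pairs allow. The log2 ratio of Rbm3 to Rtn3 was 2.79 ± 0.34 and 2.86 ± 0.20, higher in 2 of 4 pairs (exact permutation p = 0.714, adjusted p = 0.714). The log2 ratio of Ybx1 to Carhsp1 was 3.96 ± 0.055 and 3.99 ± 0.061, higher in 2 of 4 pairs (exact permutation p = 0.429, adjusted p = 0.643). All 3 differences were smaller than the SD of the control libraries.

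Related genes were grouped into 7 lists, which share some genes with each other and with the 5. In the edgeR fit without the block, 0 of the 75 list genes tested were called. At an adjusted p under 0.05 with the block, 8 were called, and those are named here beside the shares of all genes given above. Of the 8 markers of SCs and myoblasts, 0 were called without the block and 3 with it, all lower in cold: Cdh15 (174 ± 30.6 to 140 ± 21.2 TPM, log2 fold change with the block −0.32), Itga7 (209 ± 31.2 to 172 ± 23.7 TPM, −0.29) and Myod1 (614 ± 103 to 567 ± 98.0 TPM, −0.13). The call of Myod1 was lost without replicate 1 (edgeR adjusted p = 0.133) or 2 (0.119), whereas those of Cdh15 and Itga7 held with each replicate number left out. All 3 were called in DESeq2 with the block (adjusted p at most 0.00902). With replicates 3 and 4 alone all 3 were lost (edgeR adjusted p from 0.303 to 0.997). Their log2 fold changes were then −0.265 for Cdh15, −0.253 for Itga7 and −0.098 for Myod1. The markers not called included Pax7, at 12.7 ± 2.17 TPM before and 13.5 ± 1.70 TPM after cold exposure, and Myf5, at 147 ± 52.9 and 154 ± 45.7 TPM. Of the 7 fibroblast markers, 0 were called in either fit. The part of these cells in the list results was not tested.

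The cold-shock-domain list held 9 genes, of which Strap has no entry and Lin28a and Lin28b were too low to test. Of the 6 tested, 3 had positive and 3 negative values, with a median log2 fold change of 0.0059 against 0.0071 for all genes. No gene of this list was called in either fit. Csdc2 had the most negative value of the list, with 9.03 ± 1.19 TPM before and 7.77 ± 0.93 TPM after cold exposure (SD, n = 4) and a log2 fold change of −0.24 that did not pass the test (edgeR adjusted p = 0.88, with the block 0.225). Ybx2, the germ-cell Y-box gene, was barely expressed, at 0.88 TPM before and 0.86 TPM after cold exposure.

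RRM relatives of Rbm3 and splicing regulators formed a list of 15 genes, 13 of which were tested, since Cirbp and Rbmxl1 have no entry. Positive values were seen for 9 and negative values for 4, the median was 0.05, and 0 were called in either fit. Hnrnpa2b1, a highly expressed splicing factor, had 1283 ± 100.3 TPM in the control group against 1356 ± 65.6 TPM in the cold group. Clk1 and Clk4 encode kinases that phosphorylate SR splicing factors and respond to temperature. Clk1 had 49.8 ± 8.30 and 52.2 ± 8.13 TPM, and Clk4 had 16.7 ± 2.29 and 15.9 ± 2.91 TPM. Srsf5, one of these SR factors, was higher in cold in 4 of 4 pairs, with 200 ± 18.5 and 213 ± 25.6 TPM, and was not called (edgeR adjusted p with the block = 0.314).

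The list of temperature sensors and transcription factors linked to cold-inducible genes held 10 genes, with 8 tested, 7 of them positive, a median of 0.05 and 0 called in either fit. Trpv3 and Trpv4 were too low to test. Trpm8, the cold receptor of sensory neurons, was close to undetected, with 0.22 ± 0.17 TPM before and 0.11 ± 0.061 TPM after cold exposure. Trpa1, another channel of the family, had 24.7 ± 10.8 and 25.8 ± 9.78 TPM. Hsf1, the master factor of the heat shock response, had 59.5 ± 5.93 and 61.0 ± 4.84 TPM, and Sp1, described as an activator of Cirbp, 9.92 ± 1.14 and 10.4 ± 0.19 TPM.

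Reticulons and their ER partners gave 8 tested genes, 3 positive and 5 negative, with a median of −0.02. Rtn2 and Rtn4, relatives of Rtn3, fell in cold in the blocked fit. Rtn4, which encodes the Nogo proteins, went from 493 ± 21.4 to 444 ± 13.8 TPM (SD, n = 4) with a blocked log2 fold change of −0.24 (edgeR adjusted p with the block = 0.000632, without it 0.642). Rtn2, a muscle-enriched reticulon, went from 39.1 ± 1.23 to 32.5 ± 3.04 TPM with a blocked log2 fold change of −0.25 (edgeR adjusted p with the block = 0.0421, without it 0.454). For both genes, all 4 cold libraries were below all 4 controls in TPM, which held for 2.41% of all genes. The call of Rtn4 held when each replicate number was left out in turn (edgeR adjusted p at most 0.00719), whereas that of Rtn2 was lost without replicate 1 (0.173), 2 (0.266) or 4 (0.0501), and in DESeq2 with the block (0.341). With replicates 3 and 4 alone Rtn4 was not called either (log2 fold change −0.16, edgeR adjusted p = 0.881), against −0.33 with replicates 1 and 2 alone. Rtn3 itself had the smallest absolute log2 fold change of the 8 genes, and Rtn1 was at 14.1 TPM in both groups. The differences between Rtn3 and its relatives were not tested.

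Genes of mRNPs and stress granules, the particles in which the Y-box proteins are found, formed the longest list, with 24 genes and 22 tested, since Syncrip has no entry and Igf2bp1 was too low to test. Positive values were seen for 16 and negative values for 6, with a median of 0.04. In the blocked fit 4 rose and 0 fell. Pabpc1, the main cytoplasmic poly(A)-binding protein, went from 689 ± 41.4 to 763 ± 23.3 TPM (blocked log2 fold change 0.13, edgeR adjusted p with the block = 0.0190). Ncl, which encodes nucleolin, went from 903 ± 67.2 to 1041 ± 123 TPM (0.18, adjusted p with the block = 0.0220), higher in 3 of 4 pairs. Lsm14a, a component of P-bodies, went from 98.3 ± 2.46 to 111 ± 6.56 TPM (0.15, adjusted p with the block = 0.0345) with no overlap between groups. Hnrnpu, a nuclear scaffold protein, went from 394 ± 15.4 to 433 ± 22.6 TPM (0.12, adjusted p with the block = 0.0460). Without the block their edgeR adjusted p lay between 0.581 and 0.834. DESeq2 with the block kept the call of Pabpc1 (adjusted p = 0.0112) and lost those of Hnrnpu (0.0610), Lsm14a (0.109) and Ncl (0.557). All 4 edgeR calls were lost without replicate 1 or 2: without replicate 1 the adjusted p with the block lay between 0.172 and 0.311, without replicate 2 between 0.192 and 0.320, and without replicate 3 that of Hnrnpu was 0.146. With replicates 3 and 4 alone all 4 were lost too (edgeR adjusted p = 0.997 each). Their log2 fold changes were then 0.039 (Ncl) to 0.094 (Pabpc1), against 0.146 (Hnrnpu) to 0.312 (Ncl) with replicates 1 and 2 alone. G3bp1, the core protein of stress granules, had 114 ± 8.04 and 117 ± 9.86 TPM and was not called.

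Reported target mRNAs of these RNA-binding proteins gave 8 tested genes out of 9, with 4 positive, 4 negative, a median of 0.01 and 0 called in either fit. Tnf, the known target of CARHSP1, was listed at 0 in every library. Txn, the thioredoxin mRNA described as bound by CIRBP, had 1774 ± 118 TPM before and 1640 ± 36.7 TPM after cold exposure, lower in 4 of 4 pairs, and was not called (log2 fold change −0.11, edgeR adjusted p with the block = 0.112). Clock, a circadian gene whose transcript CIRBP is known to bind, had 18.4 ± 4.49 and 19.9 ± 3.17 TPM.

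Heat shock genes were included as the other arm of the temperature response. Of 15 genes, Hspa1a, Hspa1b and Hspe1 have no entry, and of the 12 tested 4 were positive and 8 negative, with a median of −0.01. Only the small heat shock genes Hspb1 and Hspb8 were called among them, both lower in cold in the blocked fit. Hspb1 went from 339 ± 103 to 158 ± 22.0 TPM (SD, n = 4) with a blocked log2 fold change of −1.08 (edgeR adjusted p with the block = 5.95e-08, without it 0.143). It is among the genes the study itself selected on these libraries and is not independent evidence of the direction of the list. Hspb8, whose product works with BAG3 in chaperone-assisted selective autophagy, went from 1446 ± 350 to 1038 ± 210 TPM (−0.49, adjusted p with the block = 6.35e-07, without it 0.708). Both calls held when each replicate number was left out in turn, and with replicates 3 and 4 alone that of Hspb1 held (adjusted p = 0.0112) and that of Hspb8 did not (0.0605). The constitutive chaperone Hspa8 had 2864 ± 122 and 2875 ± 292 TPM, and Hsp90aa1 1124 ± 113 and 1173 ± 43.9 TPM.

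**Figure D4:**
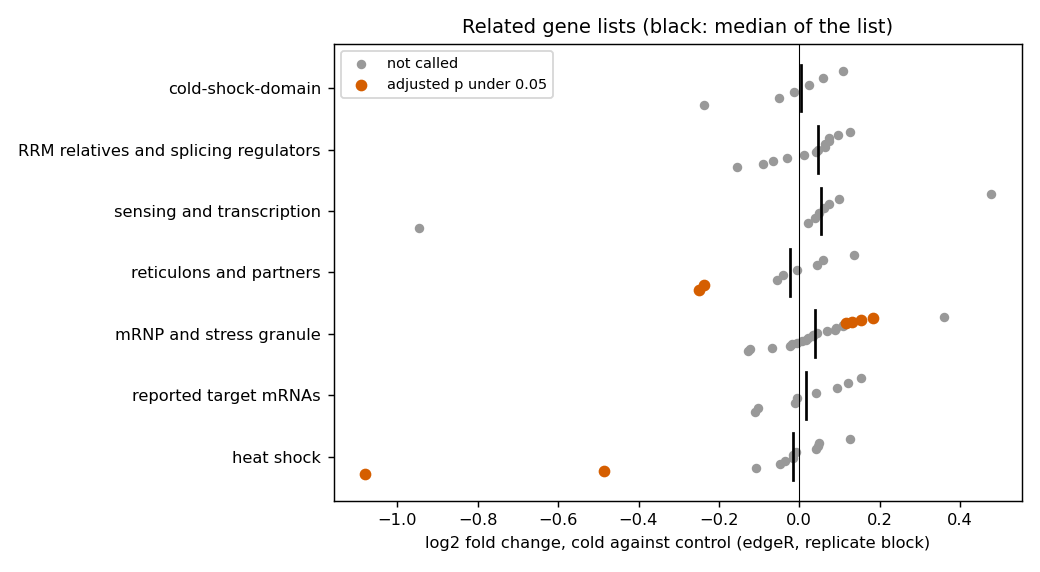
Log2 fold change, cold against control, of each tested gene of the 7 lists from edgeR with the replicate block, as 1 point per gene with a black bar at the median of the list. The 8 genes at an adjusted p under 0.05 are orange: 2 of the reticulons and 2 heat shock genes to the left of 0 and 4 mRNP genes to the right. The other 4 lists hold no called gene, and the 7 medians lie between −0.02 and 0.06.

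The pattern of each gene over the 8 libraries was compared with that of 10486 other genes by the root-mean-square distance of log2 CPM, each centred on its own mean. For Rbm3 the nearest genes were Tceal8 (distance 0.057), Eef2kmt (0.062) and Mlycd (0.062), against a spread of Rbm3 itself of 0.241. Tceal8 held 163, 136, 118 and 124 TPM in control replicates 1 to 4 and 163, 161, 124 and 121 TPM in cold replicates 1 to 4, again higher in replicates 1 and 2. No gene came within 0.05 of Rbm3.

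The other 4 genes varied less than Rbm3 and had nearer neighbours. Ybx1, Carhsp1 and Rtn3, with spreads of 0.049 to 0.063, had many genes close to them. Ybx3, with a spread of 0.121, had fewer. Ybx1 was nearest to Ctbp1 (0.019), Eif4e (0.022) and Ankrd52 (0.023), with 301 genes within 0.05. Carhsp1 was nearest to Gosr2 (0.017), Tcf4 (0.020) and Ano6 (0.022), with 345 genes within that distance. Rtn3 was nearest to Vps26a (0.024), Gmfb (0.025) and Trib1 (0.025), with 129 genes. Ybx3 was nearest to Epb41l1 (0.032), Mrps14 (0.033) and Tmem185b (0.035), with 12 genes.

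**Figure D5:**
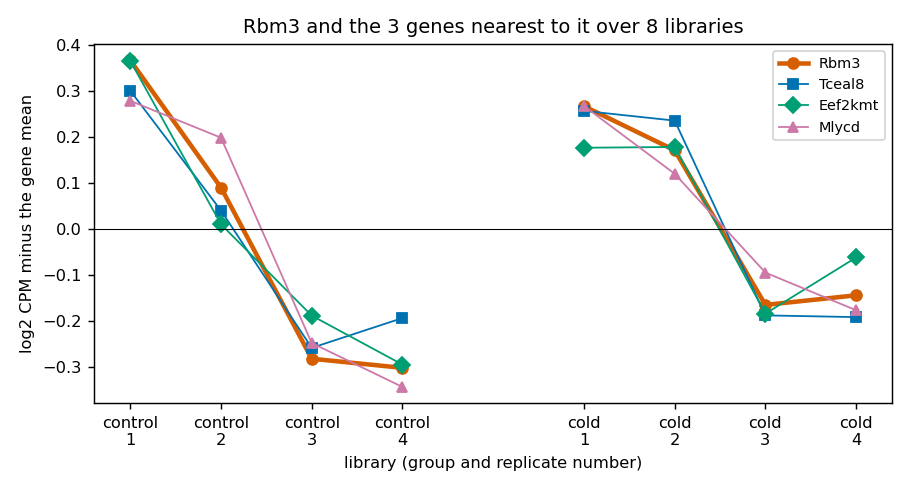
Log2 CPM minus the mean of the gene in each of the 8 libraries for Rbm3 (thick line) and the 3 genes nearest to it, Tceal8, Eef2kmt and Mlycd. Lines only join the points of a gene, since replicates have no order. All 4 genes were above their means in replicates 1 and 2 of both groups and below them in replicates 3 and 4.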

How the data were processed

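RNA of 4 control and 4 cold libraries was sequenced by the study. HISAT and HISAT2 are named, without versions, in the submitters' processing notes; the counting program, the annotation and the genome build are not given in the sources used here. The authors deposited 1 table with, per gene and library, an expected count (not normalized, not always whole, 96.4% to 96.6% whole per library), a TPM value and a normalized count. This deposited signal equalled the expected count, rounded up, times 1 factor per library (0.924 to 1.02). All 17590 identifiers matched the hamster RefSeq annotation, used for names. All per-sample columns were used.

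The main test was edgeR's quasi-likelihood test (edgeR 4.0.16, R 4.3.3) on rounded expected counts, with filterByExpr, TMM and an adjusted p under 0.05 over 12506 genes, checked on simulated counts. The simulated counts held no difference between replicate numbers, and their planted changes were larger than those of the genes described here. The check therefore does not cover the replicate split or such small changes. Each SE was derived from the fold change and its F statistic. Single genes were compared in TPM by exact two-sided permutation tests. Replicate numbers were taken to pair the libraries: across 12506 genes, which are not independent replicates, deviations from the group means correlated at r = 0.609, 0.618, 0.647 and 0.659 between same-numbered libraries, from 0.432 to 0.591 for unequal numbers within replicates 1 and 2 or within 3 and 4, and from −0.609 to −0.553 for all other pairs. The numbers come from the titles, which do not say what they mark. A chi-square per gene between libraries of a group was at least 2.39, so no library was taken as a duplicate. Intervals from replicates cover library spread, and the depth limits mainly the genes under 1 TPM.

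The members and lists were chosen with earlier results of these data known. Named are the members, from each list the genes called with or without the block (at most 5 per list), genes at 0 or not tested, the 3 nearest genes per member (LOC symbols and means under 1 TPM left out), and Pax7, Myod1, Myf5, Des and Cdh15. Further list genes with values (Csdc2, Ybx2, Hnrnpa2b1, Clk1, Clk4, Srsf5, Trpm8, Trpa1, Hsf1, Sp1, Rtn1, G3bp1, Txn, Clock, Hspa8 and Hsp90aa1), the other markers (Itga7 among them) and Myog were added after their values were seen. List genes not named enter the counts and medians only. Alternatives were DESeq2 1.42.0, RLE factors, library totals, no filter on low counts, the replicate block, limma 3.58.1 on log2(TPM + 0.1) or log2(TPM + 1) with a filter of 0.1 TPM in 4 libraries or without it, pairs of replicate numbers alone and each library left out. Deposited factors, DESeq2 or library totals with the block, and the block without each number were added after seeing the data. Plots were made in Python 3.11.15 with matplotlib 3.10.9.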

Additional observations from a re-analysis of the deposited data

How the results depend on the processing

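Over 25 alternatives, 0 of the 125 log2 fold changes of the 5 genes passed an adjusted p of 0.05 (edgeR, DESeq2 or limma; lowest adjusted p 0.125), and Ybx1 and Ybx3 were positive in all 25. Rbm3 turned to −0.022 with replicates 1 and 2 alone, Carhsp1 to −0.0139 with replicates 3 and 4 alone, and Rtn3 to 0.0226 with replicates 1 and 2 alone and to 0.0117, 0.0117 and 0.0116 in limma with no filter, a pseudocount of 0.1 and a pseudocount of 1. These values lie inside the intervals of the report.

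The replicate block raised the numbers of genes called at adjusted p from 0 to 158 (higher) and from 9 to 509 (lower). With a log2 fold change of at least 1 they rose from 0 to 5 and from 5 to 101, and list genes from 0 to 8. The block changed no call of the log2 fold changes of the 5 genes. For TPM differences and ratios the block was an exact test over 4 pairs. That exact test cannot pass the threshold with 4 pairs, so it could call no TPM difference and no ratio. Whether calls of the ratios hold with pairing can therefore not be decided. For Ybx1 in TPM the exact test over pairs (replicate block) kept the difference of 69.5 TPM at p = 0.125, which 4 pairs cannot go below. In the order higher, lower, higher with the fold and lower with the fold, DESeq2 gave 3, 133, 0 and 68, DESeq2 with the block 36, 314, 1 and 90, library totals with the block 174, 499, 5 and 100, replicates 1 and 2 alone 589, 853, 8 and 175, and replicates 3 and 4 alone 2, 48, 1 and 27. Only the lower genes moved with library totals (14, and 8 with the fold), no filter on low counts (25 and 15), limma with a pseudocount of 0.1 or 1 (4 and 3 for each) and limma with no filter (0 and 0). List genes called were 1 with DESeq2, 4 with DESeq2 and the block, 9 with library totals and the block, 18 with replicates 1 and 2 alone and 1 with replicates 3 and 4 alone. The median of the RRM list was 0.0018 with replicates 3 and 4 alone, and that of the sensing list 0.115 with replicates 1 and 2 alone. The causes were not tested.

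Leaving out 1 library, or 1 replicate number with the block, gave log2 fold changes from −0.0376 to 0.192 for Rbm3, −0.0486 to 0.0273 for Rtn3, 0.0275 to 0.0798 for Ybx1, 0.055 to 0.163 for Ybx3 and −0.0084 to 0.0476 for Carhsp1. TPM differences ranged from −2.72 to 78.7, −2.38 to 3.03, 56.9 to 79.7, 16.5 to 29.7 and 0.736 to 3.83 in that order. Log2 ratios ranged from −0.0512 to 0.184 (Rbm3 to Rtn3), 0.0108 to 0.0621 (Ybx1 to Carhsp1) and −0.0839 to −0.0181 (Ybx1 to Ybx3). Calls ranged from 0 to 319 (higher), 0 to 608 (lower), 0 to 7 and 0 to 131 with the fold, and 0 to 11 list genes. With the block, leaving out replicate 1, 2, 3 or 4 gave 41, 16, 102 and 319 higher and 353, 340, 472 and 608 lower genes, and 3, 3, 7 and 11 list genes. Without the block, leaving out control replicate 3 gave 45 lower genes, and each other library 0 to 4. List medians ranged from −0.0218 to 0.0281 (cold-shock domain), −0.0089 to 0.0568 (RRM), 0.0135 to 0.0896 (sensing), −0.0516 to 0.0188 (reticulons), 0.0104 to 0.0684 (mRNP), −0.0485 to 0.109 (targets) and −0.0639 to 0.0168 (heat shock). The planned ratio of Rbm3 to Cirbp was not run, because Cirbp was not analysed here. Fits with 3 libraries of a group assume the spread of the other libraries.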
